A study of Rattus norvegicus with 8 samples.

Results

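The IL-1 family and the colony-stimulating factors were examined in primary rat nucleus pulposus (NP) cells after knockdown of Sirt6. The 9 genes were chosen by name: the factors Csf1 and Csf2, the ligands Il1a, Il18 and Il33, the receptor antagonist Il1rn, and the receptor chains Il1r1, Il1rap and Il1rl1. Of the 9 genes, 8 had a row under their symbol among the 13543 named rows of the table that accompanies the counts. Il18 had none. Rows of that table all total at least 81 reads over the 8 libraries, so Il18 is taken as below its filter and no value is given for it. The cells came from adult Sprague Dawley rats and were grown as primary cultures, not as a cell line. Sirt6-Ctrl cells (libraries S1 to S4) received a lentiviral control ShRNA and Sirt6-KD cells (libraries S5 to S8) a lentiviral mixture of 3 ShSirt6 clones, and the cells in both groups were placed under puromycin. The series record describes cells from 4 rats. No library carries a rat number, so whether the groups share rats cannot be told. The p-values therefore measure the spread between the libraries, which the tests treat as independent. If 4 rats gave all 8 libraries, some libraries share a rat and that independence does not hold.

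IL-1α is made by many cell types and binds the receptor chain IL1R1, which then recruits the accessory chain IL1RAP to start NF-κB and MAP kinase signaling through MYD88 and the IRAK kinases. IL1RN occupies IL1R1 without recruiting the accessory chain. IL-33 uses the same accessory chain together with ST2, the product of Il1rl1. CSF1 and CSF2 act on macrophages and granulocytes. In the disc, IL-1 is known for driving matrix-degrading enzymes and further cytokines.

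Sirt6 itself was lower in every knockdown library, at 19.2 to 21.8 CPM (counts scaled to a common library size, with TMM factors) against 47.6 to 56.4 CPM in Sirt6-Ctrl. It fell by 1.35 on the log2 scale (edgeR, adjusted p = 0.000713), but with libraries scaled by their spike-in reads the value was -0.36 and was not called (adjusted p = 0.567). Total reads ranged from 31994838 to 40124813 per library. Synthetic ERCC spike-in RNA took 2.97% to 9.80% of the reads in the controls, with S2 and then S1 (6.27%) the highest, and 2.15% to 2.47% in the knockdown. Every control library thus lay above every knockdown library (exact permutation test, two-sided, p = 0.0286, the lowest it can give), and the spike-in share and the group cannot be told apart. Of the 12 listed markers of NP and notochordal cells, 6 had a row, with a summed level of 143 to 166 CPM in the controls and 161 to 183 CPM in the knockdown. Krt18, Krt19, T, Noto, Shh and Col2a1 had no row under those symbols, and 1 of the 6, Krt8, was called lower. The list's median log2 fold change was -0.45. Car12 was at 28.4 ± 31.0 CPM in the controls and 82.1 ± 10.8 CPM in the knockdown (not called, edgeR adjusted p = 0.0776), and the other 5 summed to 91.8 to 146 CPM and 77.5 to 98.8 CPM, a sum taken after the values were seen. The 6 fibroblast markers, Col1a1 foremost, summed to 14502 to 27366 CPM in the controls and 8649 to 18469 CPM in the knockdown. Of these 6, 2 were called lower, against 10.7% of all genes tested.

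Of the 9 genes, 7 passed the count filter and 2 of them, Csf1 and Il1r1, rose in Sirt6-KD. A gene counted as called when the FDR of the edgeR test was under 0.05 and the change over 1.5-fold. No member was called lower. Over all 13250 genes tested, 8.02% were called higher and 10.7% lower, a total of 1063 and 1416. Of the 7, 6 had a positive log2 fold change, and the median of the 7 was 1.65 against -0.016 for all genes tested. Since the genes that passed the filter include some seen mainly in Sirt6-KD, this median describes them and does not test them.

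The first 3 promoters below belong to genes of the IL-1 arm whose windows held short matches to well-known transcription factor motifs. The Csf2 promoter is shown because its gene had no read in Sirt6-Ctrl. Each is the stretch of 250 bases before the RefSeq transcription start on the assembly GRCr8, written 5′ to 3′ on the strand of the gene, with motif matches in capitals. RefSeq entries were found by symbol for 8 of the 9 genes, all but Csf1, and the first of the 2 overlapping Il1rap entries is given.
Il1r1 (chr9:50034133-50034382, plus strand): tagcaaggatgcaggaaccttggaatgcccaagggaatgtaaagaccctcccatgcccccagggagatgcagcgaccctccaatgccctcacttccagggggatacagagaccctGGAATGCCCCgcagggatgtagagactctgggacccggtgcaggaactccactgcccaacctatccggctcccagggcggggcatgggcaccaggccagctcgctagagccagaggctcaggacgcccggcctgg
Il1rap (chr11:87704343-87704592, minus strand): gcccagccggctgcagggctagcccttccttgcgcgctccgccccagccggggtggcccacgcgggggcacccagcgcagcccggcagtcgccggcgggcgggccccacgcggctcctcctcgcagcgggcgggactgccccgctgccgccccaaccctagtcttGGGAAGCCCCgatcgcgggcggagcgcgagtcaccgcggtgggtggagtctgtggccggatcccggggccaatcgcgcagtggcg
Il1a (chr3:136990018-136990267, minus strand): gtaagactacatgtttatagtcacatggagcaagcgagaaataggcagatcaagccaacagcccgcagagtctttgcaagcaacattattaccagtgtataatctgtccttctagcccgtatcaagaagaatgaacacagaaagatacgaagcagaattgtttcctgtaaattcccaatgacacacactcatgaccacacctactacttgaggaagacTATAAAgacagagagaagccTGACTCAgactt
Csf2 (chr10:38889674-38889923, minus strand): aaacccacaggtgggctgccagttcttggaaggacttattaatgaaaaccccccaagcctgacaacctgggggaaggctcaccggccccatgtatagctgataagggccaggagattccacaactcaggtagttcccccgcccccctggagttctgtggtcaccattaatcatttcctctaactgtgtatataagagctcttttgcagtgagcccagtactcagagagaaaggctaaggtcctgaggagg
The capitals in Il1r1 lie from 135 to 126 bases before the start, and those in Il1rap from 85 to 76 bases before it. Both match the NF-κB consensus in the form searched, which allowed either strand and differing letters. The same consensus occurs in 6.33% of all 33469 RefSeq promoter windows of this length. In Il1a, the AP-1 motif TGANTCA was matched by TGACTCA from 12 to 6 bases before the start, and the TATA box TATAAA from 32 to 27 bases before it. AP-1 matches occur in 6.34% of the windows on either strand, and TATAAA on the strand of the gene in 8.06%. The Csf2 window held none of these 3 motifs in the form searched, and other spellings were not searched. Of the windows not shown, those of Il18, Il1rn, Il1rl1 and the first Il33 entry held none either. The second Il33 entry held TATAAA from 29 to 24 bases before the start. These matches are letters in a window, and no binding was measured.

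**Figure D1:**
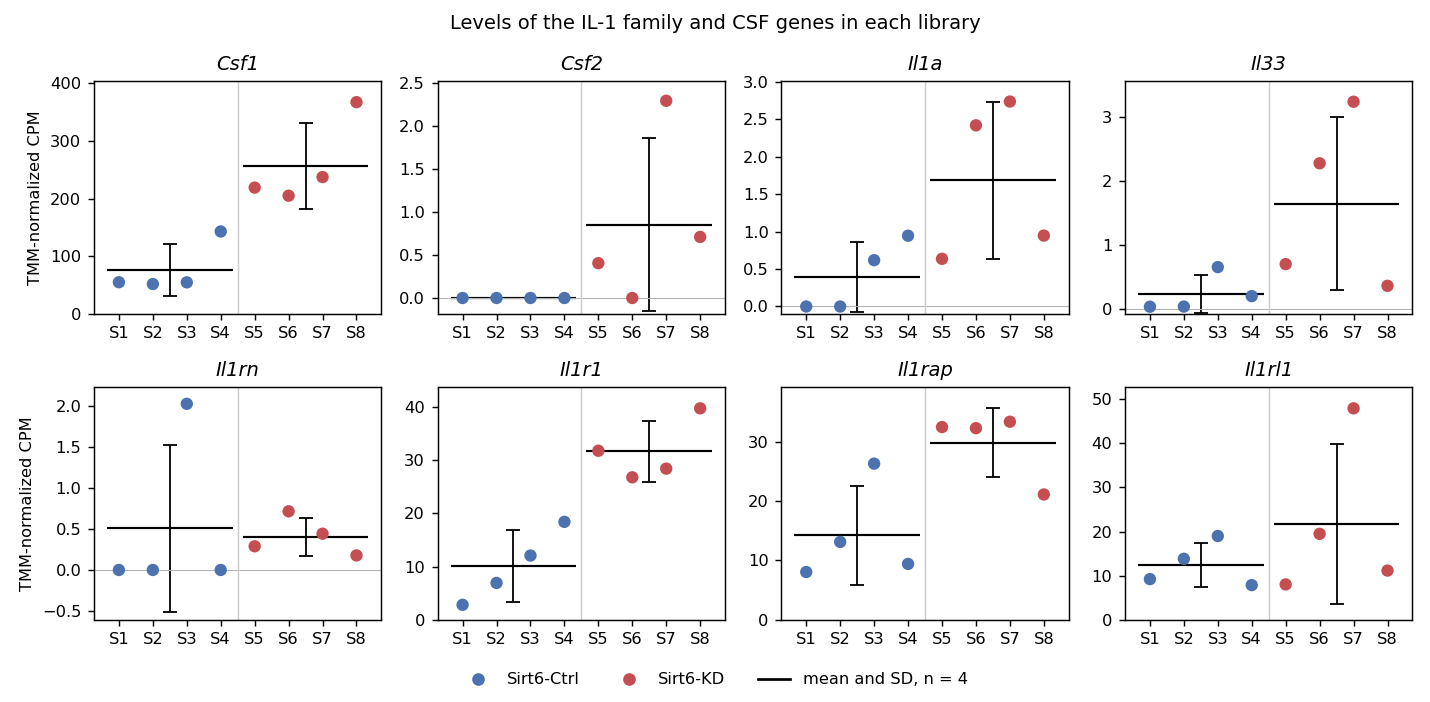
Level of each of the 8 genes with a row in the 8 libraries, in TMM-normalized CPM on a linear axis of its own per gene. Points are libraries, horizontal lines the mean of 4 and bars the SD. Csf1 and Il1r1 separate the groups, the lowest knockdown library lying at 1.44 and 1.45 times the highest control library, and the other genes overlap.

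The colony-stimulating factors were examined first. Csf1 (ENSRNOG00000018659) encodes macrophage colony-stimulating factor. Its level was 54.6, 51.5, 54.4 and 143 CPM in S1 to S4 and 219, 205, 237 and 367 CPM in S5 to S8. S1, S2 and S3 sat together and S4 was 2.67 times their mean, yet still below every knockdown library. Csf1 rose 3.39-fold, from 75.8 ± 44.7 to 257 ± 74.7 CPM (mean ± SD, 4 libraries each), with a log2 difference of 1.76 and a standard error of 0.35 (edgeR, adjusted p = 0.00857). Every knockdown library lay above every control library for Csf1 and Il1r1, as for 14.8% of all genes tested, and the reverse order, seen in 15.6% of genes, occurred for no member. Csf1 was called in all 8 fits that left out 1 library, with log2 fold changes from 1.57 to 2.26, and without both S1 and S2, where the value was 1.39 (edgeR, adjusted p = 0.0453).

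Csf2 (ENSRNOG00000026805), which encodes granulocyte-macrophage colony-stimulating factor, had 0 reads in each of the 4 control libraries. In the knockdown libraries it had 14, 0, 88 and 24 reads, so S6 was as empty as the controls and S7 held 69.8% of all Csf2 reads. The mean of Sirt6-KD, 0.852 ± 1.004 CPM (mean ± SD of 4 libraries), was at least 10.03-fold higher than 3 reads per control library, which correspond to 0.0727 to 0.0928 CPM. Without S7, an alternative chosen after seeing the data, it was at least 4.37-fold higher. An exact two-sided permutation test over the libraries gave p = 0.143. The gene did not pass the count filter. Of the 8 alternatives in which it was fitted, 4 called it, with adjusted p = 0.0375 in edgeR without a filter, 0.00207 in DESeq2, 0.0441 without S3 and 0.0403 without S6. In the other 4 the adjusted p ranged from 0.0514 to 0.0994. With 0 reads in each control library, Csf2 entered all of these fits through knockdown reads alone. The fit without S6 also left out the empty knockdown library. These calls are therefore no support for a rise.

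Receptors and partners of the factors were listed as well. Csf1r, the receptor of CSF1, had 0 to 33 reads per library (edgeR, adjusted p = 0.906). Csf2ra, the ligand-binding chain for CSF2, had 79 to 273 reads and a log2 fold change of -0.02 (edgeR, adjusted p = 0.977). Csf3, which encodes granulocyte colony-stimulating factor, was at 13.6, 25.98, 36.9 and 2.74 CPM in S1 to S4 and at 43.1, 52.9, 70.3 and 28.2 CPM in S5 to S8, and the groups overlapped through S3 and S8. Its log2 difference was 1.30, with standard error 0.59, and missed the threshold (edgeR, adjusted p = 0.139). Of the 19 genes listed as CSF partner ligands, receptors and signal mediators, 14 were tested, 2 were called higher and 1 lower. Over all genes tested, 8.02% were called higher and 10.7% lower. The list's median log2 fold change was 0.20. Cish and Socs3 rose, 2 feedback inhibitors of cytokine receptors, by 1.41 and 1.09 on the log2 scale (edgeR, adjusted p = 0.0126 and 0.0261). Cish was called with any single library left out, and Socs3 was no longer called without S1, S5, S6 or S7 (adjusted p up to 0.0802). Il3ra, the binding chain of the IL-3 receptor, fell by 0.97 on the log2 scale (edgeR, adjusted p = 0.0464). Its value turned to 0.29 with libraries scaled by spike-ins, where the all-gene median was 0.94. Il3ra was also not called without any 1 of S1, S2, S5, S6, S7 or S8 (adjusted p up to 0.134), nor without both S1 and S2 (log2 fold change -0.29, adjusted p = 0.367).

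The ligands of the IL-1 family had few reads in the controls. Il1a (ENSRNOG00000004575) had 0, 0, 21 and 39 reads in S1 to S4 and 22, 81, 105 and 32 reads in S5 to S8. S6 and S7 were high, while S5 and S8 lay within the range of S3 and S4. The control mean was 0.391 ± 0.471 CPM and the knockdown mean 1.69 ± 1.05 CPM (mean ± SD, 4 libraries each), and the log2 difference of 2.09 had a standard error of 1.31 (edgeR, adjusted p = 0.279). The value was 3.01 without S4, 1.11 without both S1 and S2 and 3.66 in limma-voom, and it was called in none of these (adjusted p = 0.183, 0.355 and 0.0849).

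Il33 (ENSRNOG00000016456), whose product is stored in the nucleus and released by damaged cells, had 1, 1, 22 and 8 reads in S1 to S4. In S5 to S8 it had 24, 76, 124 and 12 reads, and S8 fell below S3. The mean went from 0.225 ± 0.292 to 1.64 ± 1.35 CPM (mean ± SD, 4 libraries each). The log2 difference was 2.84 with a standard error of 1.15 (edgeR, adjusted p = 0.101). Il33 was called in DESeq2 (adjusted p = 0.0295) and in edgeR once S3 was left out, where the log2 fold change was 4.19 (adjusted p = 0.0295). The controls left in that edgeR fit held 1, 1 and 8 reads, under the count filter's minimum of about 10. Il33 thus entered it through knockdown reads alone, and this edgeR call is no support for a rise. In both Il1a and Il33, S1 and S2 had at most 1 read, and these are the 2 libraries with the largest spike-in share. The part of the spike-in share in these values was not tested.

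Il1rn (ENSRNOG00000005871) encodes the receptor antagonist, the natural counterpart of IL-1α. It had 69 reads in S3 and none in S1, S2 and S4, so 1 library held all control reads. The knockdown libraries had 10, 24, 17 and 6 reads. The log2 difference of -0.31 had a standard error of 1.65 (edgeR, adjusted p = 0.915), and it turned to 0.07 with spike-in scaling and to 2.95 in limma-voom. Without S3 the controls held no read, and the mean of Sirt6-KD, 0.407 ± 0.234 CPM (mean ± SD of 4 libraries), was at least 4.85-fold higher than 3 reads per library. The edgeR fit without S3 gave adjusted p = 0.0228. Il1rn entered that fit through knockdown reads alone, so this call is no support for a rise. S3 therefore decided the sign of this edgeR value.

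The balance of antagonist to agonist was followed within each library, where library scaling cancels. Il1rn reads were 3.29 times those of Il1a in S3 and 0 times in S4, and neither gene had a read in S1 and S2. In S5 to S8 the ratio was 0.455, 0.296, 0.162 and 0.188, so Il1a had more reads than Il1rn in all 4 knockdown libraries. These are read ratios without correction for transcript length, so they do not show which transcript was more abundant. With 0.5 reads added to both genes, the mean log2 ratio was -1.15 ± 3.53 in Sirt6-Ctrl and -1.94 ± 0.66 in Sirt6-KD (mean ± SD, 4 libraries each), and an exact permutation test, two-sided, gave p = 0.714 where 0.0286 was the lowest reachable. In S1 and S2 the ratio came from the added reads alone.

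The receptor chains had higher counts than the ligands and gave more precise values. Il1r1 (ENSRNOG00000014504), the signaling receptor of IL-1, was at 2.82, 6.93, 12.1 and 18.4 CPM in S1 to S4. It was at 31.7, 26.8, 28.4 and 39.7 CPM in S5 to S8. The controls spanned 6.53-fold and the knockdown libraries 1.48-fold, without overlap. Il1r1 rose 3.14-fold, from 10.1 ± 6.73 to 31.7 ± 5.76 CPM (mean ± SD, 4 libraries each), with a log2 difference of 1.65 and a standard error of 0.46 (edgeR, adjusted p = 0.0277). With 1 library fewer the log2 fold change stayed between 1.36 and 2.12, but the call was lost in 5 of 8 such fits. The adjusted p was then 0.0528 without S2, 0.0666 without S5, 0.0614 without S6, 0.0624 without S7 and 0.0723 without S8. Without both S1 and S2 the log2 fold change was 1.06 and the gene was still called (edgeR, adjusted p = 0.0219).

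Il1rap (ENSRNOG00000001928), the accessory chain shared by the IL-1 and IL-33 receptors, was at 8.05, 13.1, 26.3 and 9.41 CPM in S1 to S4. In S5 to S8 it was at 32.4, 32.3, 33.3 and 21.1 CPM. S3 lay above S8, and apart from these libraries the groups did not meet. The mean went from 14.2 ± 8.33 to 29.8 ± 5.81 CPM (mean ± SD, 4 libraries each), a log2 difference of 1.07 with a standard error of 0.35, which missed the threshold (edgeR, adjusted p = 0.0534). It passed without S3, with a log2 fold change of 1.55 (edgeR, adjusted p = 0.00218), and in DESeq2 and limma-voom (adjusted p = 0.0166 and 0.0185).

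Il1rap reads were 2.86, 1.89, 2.18 and 0.511 times those of Il1r1 in S1 to S4 and 1.02, 1.21, 1.17 and 0.531 times in S5 to S8. S4 and S8 were alike in having about as few Il1rap reads per Il1r1 read. The log2 ratio was 0.65 ± 1.103 in Sirt6-Ctrl and -0.09 ± 0.55 in Sirt6-KD (mean ± SD, 4 libraries each; exact two-sided permutation test, p = 0.314). Adjusted over the 2 ratios examined, that p was 0.629.

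Il1rl1 (ENSRNOG00000014835) encodes ST2, which exists as a membrane receptor of IL-33 and as a soluble form that the gene-level counts do not separate. Its level was 9.22, 13.8, 19.0 and 7.85 CPM in S1 to S4 and 8.02, 19.5, 47.9 and 11.2 CPM in S5 to S8. S7 was 3.72 times the mean of the other 3 knockdown libraries, which lay within or next to the control range. The log2 difference of 0.80 had a standard error of 0.52 (edgeR, adjusted p = 0.297), and without S7 it was 0.05 (adjusted p = 0.957).

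S7 was the highest knockdown library for 5 of the 8 genes with a row (Csf2, Il1a, Il33, Il1rap and Il1rl1), and for 26.1% of all genes tested. S7 was 6.17 times the mean of the other knockdown libraries for Csf2, 2.92 times for Il33 and 2.05 times for Il1a. Csf1 and Il1r1, the genes that rose, were instead highest in S8. Between libraries of a group, the coefficient of variation of Il1rl1 in Sirt6-KD was 84.0%, and those of Il1r1 and Il1rap were 18.2% and 19.5%, against a median of 14.6% for all genes tested. In Sirt6-Ctrl, Il1r1 varied by 66.9% and Il1rap by 58.6%, against a median of 32.0%.

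**Figure D2:**
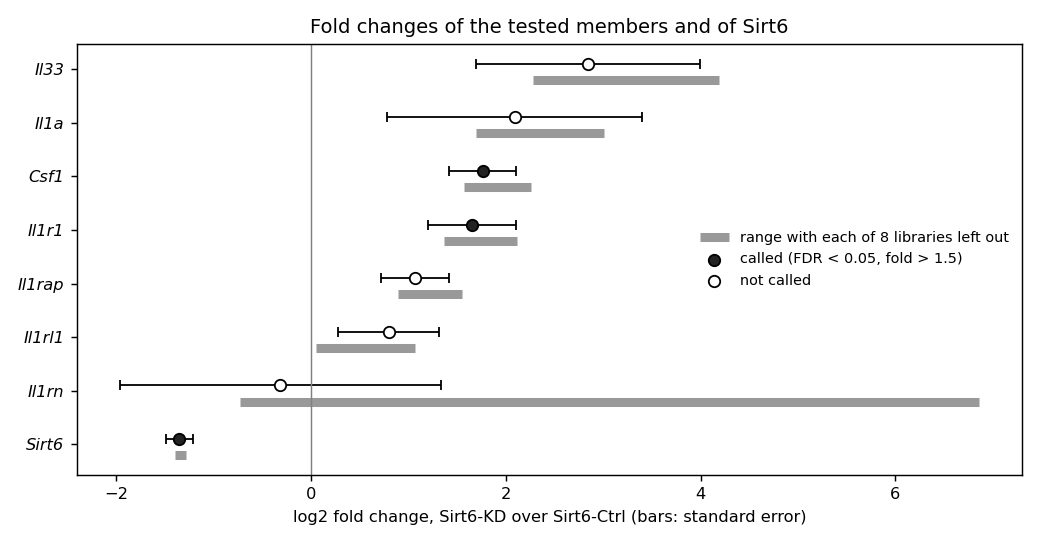
Change between knockdown and control (log2) for the 7 tested members and Sirt6 (edgeR, n = 4 per group), with the standard error as thin bars and the range over the 8 fits without 1 library as grey bars. Csf1, Il1r1 and Sirt6 are called. The grey bars of all genes but Il1rn, called or not, keep to one side of 0. That of Il1rn reaches 6.86, a fitted value in the fit without S3, where no control library held a read.

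Il1r1 and Il1rl1 lie in a cluster of IL-1 receptor genes, whose order on rat chromosome 9 of GRCr8 is Il1r2, Il1r1, Il1rl2, Il1rl1, Il18r1 and Il18rap among protein-coding genes, with H3f3al3 between the first 2. Il1r2, the decoy receptor, had no row. Il18rap, the accessory chain of the IL-18 receptor, was at 2.24, 5.13, 7.06 and 1.67 CPM in S1 to S4 and at 12.1, 9.68, 17.5 and 9.26 CPM in S5 to S8, without overlap. It rose by 1.59 on the log2 scale with a standard error of 0.46 (edgeR, adjusted p = 0.0343), and kept its call in 2 of the 8 fits without 1 library, those without S2 or S3 (adjusted p up to 0.113). Without both S1 and S2 it was not called either (log2 fold change 1.49, edgeR adjusted p = 0.0969). Il18r1, the binding chain of the same receptor, had 41, 2, 57 and 51 reads in the controls and 111, 76, 84 and 113 in the knockdown libraries. Those groups did not overlap either, but the difference was not called (log2 fold change 1.40, standard error 0.78, edgeR adjusted p = 0.22). Il1rl2, the receptor of IL-36, had a log2 fold change of 0.71 (edgeR, adjusted p = 0.15). All 5 receptor genes with a value had positive log2 fold changes. Of the 5, 2 were called higher, against 8.02% of all genes tested. Il1r1, Il18rap and Il18r1 had every knockdown library above every control library, as had 14.8% of all genes tested. Both calls were lost in several fits without 1 library, and these counts describe 5 genes and test nothing. Map4k4, a kinase gene beside the cluster, was called at a log2 fold change of 0.70 (edgeR, adjusted p = 0.0195) but not without S1, S5, S6 or S7 (adjusted p up to 0.0648).

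**Figure D3:**
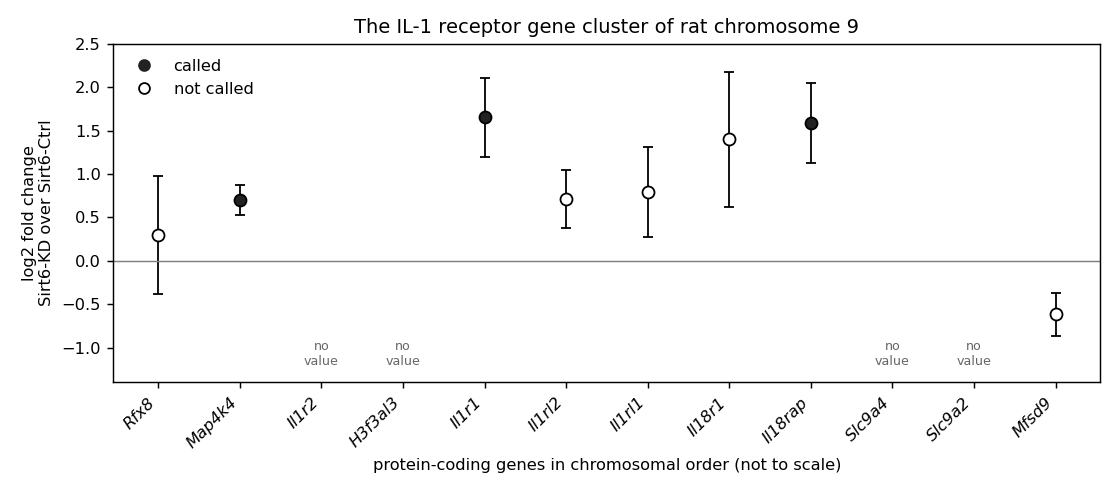
Log2 fold change (Sirt6-KD over Sirt6-Ctrl, with standard error, edgeR, n = 4 per group) of the protein-coding genes around the IL-1 receptor cluster, in chromosomal order and not to scale. Filled points are called. Il1r1 (1.65) and Il18rap (1.59) are the called receptor genes, and Map4k4 (0.70) next to the cluster is also called.

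Few genes of the rest of the IL-1 family had a row under their symbol. Of 14 further ligands, receptors and binding proteins listed, 4 were tested, and Il18rap was the gene called. Over all genes tested, 8.02% were called higher. Il18bp, the soluble IL-18 binding protein, had a log2 fold change of -0.85 (edgeR, adjusted p = 0.387). Sigirr, an inhibitory receptor, was below the filter, with 51, 92, 1 and 9 reads in S1 to S4 and 0 to 9 reads in Sirt6-KD. Il1b, the other main IL-1 ligand, had no row under its symbol.

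Genes that carry the signal from the IL-1 receptor showed no common direction. Of 20 listed mediators, 19 were tested, 1 was called higher and 2 lower, against 8.02% and 10.7% of all genes tested. The median log2 fold change of the mediators was -0.04. Irak3, which encodes an inhibitory member of the IRAK family, rose from 30.4 ± 11.1 to 78.8 ± 9.80 CPM (mean ± SD, 4 libraries each; log2 difference 1.37, standard error 0.24, edgeR adjusted p = 0.00573). Its control libraries were at 19.2 to 45.4 CPM and its knockdown libraries at 64.5 to 86.6 CPM, and the call held without any single library. Irak4, the kinase that starts the cascade, fell from 30.1 ± 11.6 to 15.8 ± 0.69 CPM (mean ± SD, 4 libraries each), by 0.93 on the log2 scale (edgeR, adjusted p = 0.0243). Irak4 was at 0.26 with spike-in scaling, where the all-gene median was 0.94. Its call was lost without S1, S5, S6, S7 or S8 (adjusted p up to 0.0723), and without both S1 and S2 (adjusted p = 0.0605). Ube2v1, a ubiquitin-conjugating partner in TRAF6 signaling, fell by 0.63 (edgeR, adjusted p = 0.017), and was at 0.40 with spike-in scaling, against the same median of 0.94. It was not called without S1, S2, S6 or S7 (adjusted p up to 0.0611), or without both S1 and S2 (adjusted p = 0.0732). Myd88, the adaptor, had a log2 fold change of -0.33 (edgeR, adjusted p = 0.178).

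Among 15 listed genes of the inflammasome and of cytokine processing, 12 were tested. None was called higher, against 8.02% of all genes tested, and 1 was called lower, against 10.7% (edgeR). That gene was Panx1, a channel that releases ATP. It fell from 11.8 ± 5.23 to 2.75 ± 0.88 CPM (mean ± SD, 4 libraries each), by 2.09 on the log2 scale (standard error 0.40, edgeR adjusted p = 0.0079). Panx1 was called in all 8 fits without 1 library, but with spike-in scaling its log2 fold change was -0.83 and was not called (adjusted p = 0.287). Nlrp3, the sensor, had 21, 65, 148 and 522 reads in S1 to S4 and 231 to 487 reads in Sirt6-KD (edgeR, adjusted p = 0.343). Casp1 had no row. Capn2, a calpain of the family that cleaves the IL-1α precursor, had a log2 fold change of 0.18 (edgeR, adjusted p = 0.305).

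Genes that IL-1 is known to induce in connective tissue cells were listed next. Of the 27, 25 were tested and 11 were called higher, none lower, against 8.02% called higher among all genes. The list's median log2 fold change was 0.85, with 24 of 25 values positive. It was written with earlier results of these data known and is no independent evidence of a direction. On the spike-in scale 2 genes of the list were called, and of the 11 only Cxcl2 was among them (edgeR, adjusted p = 0.0467). The rest of the 11 lost their call on that scale (edgeR, adjusted p from 0.0605 to 0.0843). With TMM scaling, the 11 were called in each of the 8 fits without 1 library and in the fit without S1 and S2.

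Feedback inhibitors were among the called genes. Tnfaip3, which encodes the deubiquitinase A20, rose by 1.47 on the log2 scale, Zc3h12a, a ribonuclease that degrades cytokine mRNA, by 1.25, and Nfkbia, the inhibitor of NF-κB, by 0.69. Nfkbiz, which encodes a nuclear coregulator of NF-κB targets, rose by 1.34. Ptgs2, the inducible cyclooxygenase, rose from 369 ± 211 to 1279 ± 27.6 CPM (mean ± SD, 4 libraries each; log2 difference 1.80, standard error 0.36, edgeR adjusted p = 0.0088). Its controls split into S1 and S2 with 5643 and 7543 reads and S3 and S4 with 21191 and 18765, and the knockdown libraries had 42339 to 50561. Cxcl2, a neutrophil chemokine, rose by 1.45, and Icam1 and Sod2, an adhesion molecule and a mitochondrial antioxidant enzyme, by 0.78 and 0.79. Lif, Cxcl1 and Mmp3 complete the 11. Il6, also on the list, had a log2 fold change of 0.54 and was not called (edgeR, adjusted p = 0.32).

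**Figure D4:**
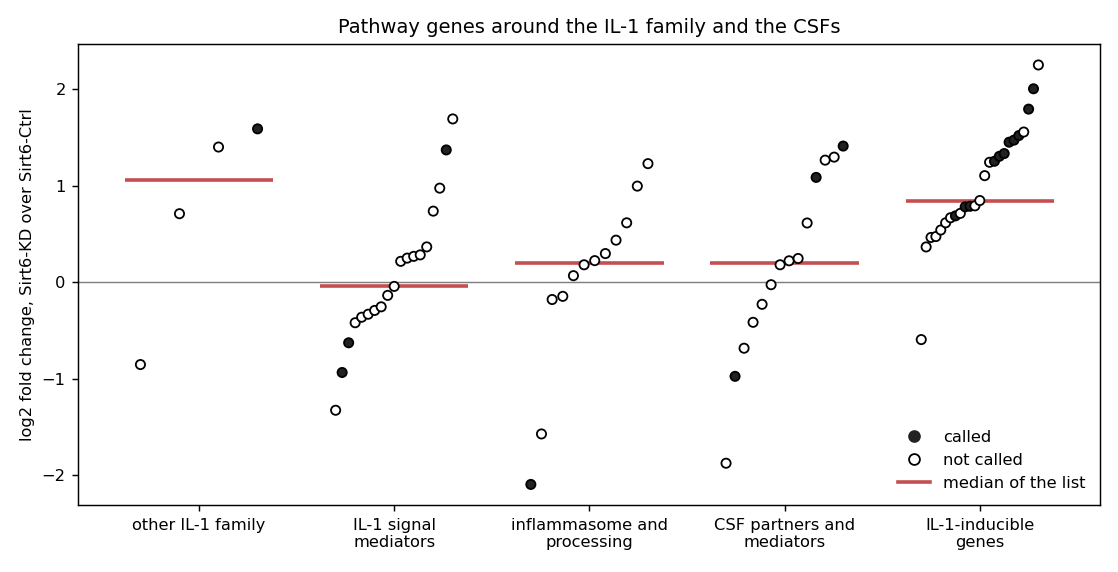
Log2 fold changes (Sirt6-KD over Sirt6-Ctrl, edgeR) of the tested genes of 5 lists, sorted within each list, with filled points for called genes and a red line for the list's median. The list of IL-1-inducible genes has 24 of 25 points above 0 and the highest number of called genes, 11, and the mediators lie around 0 with a median of -0.04.

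Few markers of cells that respond to these cytokines had a row under their symbol. Counts behind a symbol with no row could not be looked up. For such genes, few reads and a differing gene name cannot be told apart. Of 12 markers of macrophages and other myeloid cells, 3 had a row (Csf1r, Cd68 and Cd14), with a summed level of 11.9 to 29.7 CPM in the controls and 14.96 to 23.8 CPM in the knockdown, and none of the 3 was called (edgeR). None of the 5 mast cell markers had a row, and Gata3 was the only 1 of 9 lymphocyte markers to have one. Of 8 endothelial markers Tek alone had a row, with 0 to 21 reads. Of 9 keratinocyte markers 3 had a row (Dsg3, Dsc3 and Sfn), and they summed to 22.5 to 54.1 CPM in the controls and 42.3 to 82.8 CPM in the knockdown. Dsg3 was called higher, with 0, 0, 0 and 9 reads in S1 to S4 and 29 to 56 reads in Sirt6-KD. All its control libraries were under the count filter's minimum of about 10 reads. Dsg3 thus entered the test through knockdown reads alone, and this call is no support for a rise. Over all genes tested, 8.02% were called higher. The part of such cells in the cytokine values was not tested, and in bulk RNA fewer cells of a type and less RNA per cell cannot be told apart.

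Some genes had profiles over the 8 libraries close to those of the genes that rose, measured as the root mean square difference of centred log2 CPM. The nearest to Csf1 were Fosb (0.246), Fam46b (0.297) and Gda (0.305), against a median of 1.18 over 13249 other genes. The nearest to Il1r1 were Esm1 (0.158), Cd38 (0.204) and Sulf1 (0.209), against a median of 1.31. Fosb encodes an AP-1 subunit, Esm1 a secreted proteoglycan, Cd38 an enzyme that consumes NAD, and Sulf1 an extracellular sulfatase. With a prior count of 1 in place of 2 reads, 3 of 3 genes stayed nearest to Il1r1 and 2 of 3 to Csf1, where Gda was replaced.

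The size of these changes depended on the scale chosen for the libraries. When libraries were scaled by their spike-in reads, the all-gene median of the log2 fold changes moved to 0.94, and 20 genes were called higher and 4 lower. Relative to that median, Csf1 was at 1.59, Il1r1 at 1.37, Il1rap at 0.93, Il33 at 2.42, Il1a at 1.58, Il1rl1 at 0.81 and Il1rn at -0.87. None of them was called on that scale (edgeR, adjusted p from 0.0737 to 0.976). Nor were the 8 called genes of the other 4 lists, Il18rap, Irak3, Irak4, Ube2v1, Panx1, Il3ra, Cish and Socs3 (adjusted p from 0.0711 to 0.662).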

How the data were processed

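RNA-seq was done on 4 Sirt6-Ctrl and 4 Sirt6-KD libraries, grouped by the genotype label. Per the labels, the submitters' processing notes name Trimmomatic 0.36, STAR 2.5.2b, Subread 1.5.2, featureCounts, DESeq2 and the build Rnor 6.0. The authors deposited raw read counts per Ensembl gene and ERCC spike-in (32975 rows), and a table of 13612 rows with gene names. That deposited table also holds a normalized signal, made by the authors with 1 size factor per library, and their log2 fold changes and p-values, none of which was used.

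Counts were filtered with filterByExpr, scaled by TMM and tested two-sided in edgeR 4.0.16 (R 4.3.3) by the quasi-likelihood test, with Benjamini-Hochberg adjustment over 13313 rows, 63 of them spike-ins. Genes were called at an FDR below 0.05 and a fold change above 1.5. A symbol that occurs more than once was read from its row with the most reads. The labels give no strandedness, so reads of overlapping genes cannot be told apart. Alternatives were other filters and scalings, DESeq2 1.42.0, limma-voom (limma 3.58.1) and fits without 1 library. The SDs and the edgeR standard errors include the spread between libraries, and the floor of 3 reads covers counting error only. Reads carry no molecular identifiers.

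The members and lists were chosen with earlier results of these data known. All 9 members, the called genes of 5 lists and the 3 genes nearest in profile to each called member were to be named, and further genes of the lists were chosen after their values were seen. On simulated counts of this comparison (13313 rows), edgeR called 32 of 100 genes changed by 1 (log2), 63 of 100 changed by 2, and 3 unchanged rows. The simulation gave both groups the same dispersion per gene. In the data the median coefficient of variation was 32.0% in Sirt6-Ctrl and 14.6% in Sirt6-KD, so these numbers need not hold for the real libraries. No exon lengths were used, so the reads of different genes, also in the within-library ratios, do not show which transcript was more abundant.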

Additional observations from a re-analysis of the deposited data

Results flagged for a closer look

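Distances between libraries were examined in 67 groups of 4 libraries over 34 genes. In 9 groups the highest or lowest library was farther from its neighbour, as a share of the whole range, than Dixon's 95% limit, and about 1 in 20 groups, here 3.4, would be so by chance. Among control libraries, S4 was highest for Csf1 (0.966 of the range) and Fam46b (0.905), S3 was highest for Il1rn (1, all its control reads being there) and Cish (0.835), and S1 was lowest for Nfkbia (0.948). Among knockdown libraries, S8 was lowest for Il1rap (0.911), S7 highest for Il3ra (0.893) and Lif (0.908), and S6 highest for Cish (0.960).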

How the results depend on the processing

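No paired analysis was possible because the labels and count columns carry no number shared between the groups. When single libraries were dropped, the number of members called higher ranged from 1 (without S2, S5, S7 or S8) to 6 (without S3), all genes called higher from 445 to 1699 and lower from 700 to 1913, with log2 fold changes from 1.57 to 2.26 for Csf1, 1.36 to 2.12 for Il1r1, 0.90 to 1.55 for Il1rap, 2.28 to 4.19 for Il33, 1.69 to 3.01 for Il1a, -0.73 to 6.86 for Il1rn, and -2.50 to 0.16 for the log2 ratio of Il1rn to Il1a. Spike-in scaling called 0 members, with 20 genes higher and 4 lower, and gave 2.53 for Csf1, 2.32 for Il1r1, 0.072 for Il1rn and -0.36 for Sirt6, which was then not called. DESeq2 called 5 members and 1606 genes higher, with 2.87 for Il33 and 1.08 for Il1rap, which had 1.07 with CPM above 1 in 4 libraries and 1.23 with limma-voom. Limma-voom gave 2.95 for Il1rn. Without S1 and S2, 709 genes were called lower. Members called lower numbered 0 in 17 of 17 alternatives. Csf2 gave a fitted value in 8 of them, through its knockdown reads alone. The 6 members called without S3 include Csf2 and Il1rn, which had no read in the remaining controls. They also include Il33, which had 1, 1 and 8 reads there and passed the filter through knockdown reads alone. The causes were not tested. Il1a, Il33, Il1rn and Csf2, with 0 to 124 reads per library, limit what the depth can show.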
